A study of Homo sapiens with 32 samples.

Results

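The 49 genes described here were a set of DNA replication and E2F target genes: subunits of the machinery that licenses, opens and copies DNA, enzymes that supply its building blocks, and regulators of the entry into S phase. They were chosen by name as S-phase genes out of 35238 genes in the table, with earlier results of these data known. All 49 were among the 17011 genes tested. The data were bulk RNA sequencing of 4 human endometrial cancer cell lines treated for 24 h, with 2 libraries in each of 16 groups. Ishikawa is labelled CTNNB1-wildtype, and Ishikawa-S33Y, by its name a derivative of Ishikawa, SNGM and HEC265 are labelled CTNNB1-mutated. CTNNB1 encodes beta-catenin. Each line received vehicle (0.1% DMSO), paclitaxel, which stabilises microtubules, SM08502, an inhibitor of the CDC-like kinases that phosphorylate splicing factors, or both drugs (the combination). Ishikawa received 11 nM paclitaxel and 80 nM SM08502, Ishikawa-S33Y 6 and 85 nM, SNGM 11.7 and 350.7 nM, and HEC265 5.6 and 149 nM, each the line's own IC50. RNA input was 350 ng for Ishikawa and 500 ng for the other lines, so dose and input cannot be told apart from the line. Cells were plated in duplicate, and p-values measure only the spread between such duplicates, which may be technical. That spread was pooled per gene over all 16 groups, although it differed between lines.

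In G1, the origin recognition complex, CDC6 and CDT1 load the MCM2-7 helicase onto DNA, and geminin (GMNN) blocks reloading later in the cycle. CDC45 and the GINS complex then switch the helicase on, the polymerase alpha-primase complex lays the first primers, PCNA, loaded by replication factor C, holds the main polymerases, and LIG1 seals the fragments of the lagging strand. Many of these genes are switched on at the border of G1 and S by E2F factors, once cyclin-dependent kinase activity has released these factors from the retinoblastoma family. Genes of the later G2 and M phases are mostly controlled through a different promoter element, the cell cycle genes homology region (CHR).

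The promoters were examined first, because an E2F site near the start is what the name of the list refers to. RefSeq promoter windows (GRCh38.p14, 250 bases before to 50 after a gene's start) were found for 42 of the 49 members, in 54 windows. The letters TTTCCCGC or TTTGGCGC, on either strand, were present in 18 of these 54 windows (33.3%, Wilson 95% interval 22.2 to 46.6%) and in 2.27% of all 35116 windows. No member window held both sequences. The same letters were in 2 of 26 windows (7.69%) of a list of 27 G2/M genes and in 14 of 58 (24.1%, 15.0 to 36.5%) of a list of 50 other replication genes, whose interval overlaps that of the members. The CHR letters TTTGAA or TTCGAA were present in 5.56% of member windows, 69.2% of G2/M windows, 15.5% of those of the other replication genes and 16.4% of all windows. A match is a description of the letters and not evidence of a bound site. The promoters of 4 members are shown, 5′ to 3′ on the strand of the gene with the E2F letters in capitals: LIG1 fell with SM08502, GINS1 and GINS3 rose, and CDC6 passed the test in no line with SM08502, and all 4 held such letters. Their windows were chr19:48170295-48170594 on the minus strand for LIG1, and on the plus strand chr20:25407423-25407722 for GINS1, chr16:58392221-58392520 for GINS3 and chr17:40287629-40287928 for CDC6.
LIG1: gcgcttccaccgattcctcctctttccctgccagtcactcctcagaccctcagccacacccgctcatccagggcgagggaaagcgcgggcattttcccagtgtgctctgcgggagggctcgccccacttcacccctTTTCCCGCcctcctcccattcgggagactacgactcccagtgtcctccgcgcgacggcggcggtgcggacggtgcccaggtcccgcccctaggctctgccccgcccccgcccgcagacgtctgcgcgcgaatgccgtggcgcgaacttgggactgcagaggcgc
GINS1: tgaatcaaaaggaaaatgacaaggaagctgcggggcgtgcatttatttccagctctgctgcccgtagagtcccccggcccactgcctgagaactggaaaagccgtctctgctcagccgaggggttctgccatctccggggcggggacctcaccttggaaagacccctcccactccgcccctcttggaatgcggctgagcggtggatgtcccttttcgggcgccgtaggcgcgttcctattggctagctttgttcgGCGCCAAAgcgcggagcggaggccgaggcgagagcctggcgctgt
GINS3: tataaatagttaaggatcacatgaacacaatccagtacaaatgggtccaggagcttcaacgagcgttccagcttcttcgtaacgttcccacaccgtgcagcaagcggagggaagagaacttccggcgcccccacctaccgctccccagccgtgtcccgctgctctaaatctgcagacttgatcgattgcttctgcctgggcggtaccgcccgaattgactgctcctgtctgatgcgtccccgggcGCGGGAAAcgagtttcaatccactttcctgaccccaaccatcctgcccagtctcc
CDC6: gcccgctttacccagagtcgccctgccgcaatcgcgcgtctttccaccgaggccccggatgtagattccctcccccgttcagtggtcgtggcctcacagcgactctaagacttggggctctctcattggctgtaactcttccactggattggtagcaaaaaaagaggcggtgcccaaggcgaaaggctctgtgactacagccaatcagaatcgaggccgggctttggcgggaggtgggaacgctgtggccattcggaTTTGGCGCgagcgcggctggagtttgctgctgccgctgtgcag
The capitals begin 114 bases before the start in LIG1 and 5 bases before it in GINS3, and 5 and 7 bases after it in GINS1 and CDC6. Among the 13 members that rose with SM08502 in at least 1 line, 3 of the 11 with a window held the letters (GINS1, GINS3 and MCM6). Among the 7 members that fell, 3 of 7 did (LIG1, MCM3 and POLA1), and so did 12 of the 24 with a window among the 29 members called in no line.

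Depth was 13026400 to 34127623 reads in 30 libraries, and replicate 2 of the combination held 2991041 reads in Ishikawa-S33Y and 1607038 in SNGM. The root mean square log2 difference between duplicates was 0.577 for paclitaxel and 0.465 for SM08502 in Ishikawa, up to 0.455 in SNGM and 0.273 in Ishikawa-S33Y, and at most 0.129 in HEC265. Ribosomal protein genes held 3.78% and 6.19% of the reads of the Ishikawa paclitaxel libraries and 4.45% and 6.58% of the SM08502 libraries, and the part of this in the results was not tested. The epithelial genes EPCAM, KRT8, KRT18, KRT19, CDH1 and PAX8 were at 60.5 CPM (reads scaled to the library total) or more in every library. Of the 13 stromal, leukocyte and endothelial markers, COL1A1 was the exception to low levels, with 707 to 1158 CPM in Ishikawa-S33Y and 27.1 to 189 CPM in Ishikawa, while every other such marker stayed at or under 8.34 CPM.

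On vehicle, most members were highest in HEC265. Its mean was the highest of the 4 lines for 34 of 49 members, against 13 for Ishikawa and 1 each for Ishikawa-S33Y and SNGM; the lowest mean was in SNGM for 23 and in Ishikawa-S33Y for 20. The members' mean log2(CPM + 1) was 6.29 and 6.32 in the HEC265 libraries, 5.99 and 5.94 for Ishikawa, 5.49 and 5.49 for Ishikawa-S33Y, and 5.50 and 5.43 for SNGM. A gene was called at a Benjamini-Hochberg adjusted p under 0.05 in limma, fitted over all 17011 genes. HEC265 was higher than Ishikawa-S33Y for 39 members and lower for 1, where 58% of all genes were called in either direction (26.6% higher, 31.4% lower). Against SNGM the counts were 37 and 1, beside 54.9% of all genes (26% and 28.9%), and against Ishikawa 25 and 12, beside 63.3% (24.9% and 38.3%). The median member difference was 0.85, 0.95 and 0.37 on the log2 scale, beside -0.08, -0.04 and -0.17 over all genes. In the same 3 comparisons the 50 other replication genes gave 29 higher and 3 lower, 34 and 6, and 22 and 12. The 27 G2/M genes gave 14 and 3, 11 and 2, and 8 and 10, so higher levels in HEC265 were not particular to the members. Re-centring each library on its median raised the HEC265 against Ishikawa split to 30 higher and 6 lower, with a shift of the all-gene median by 0.21.

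**Figure D1:**
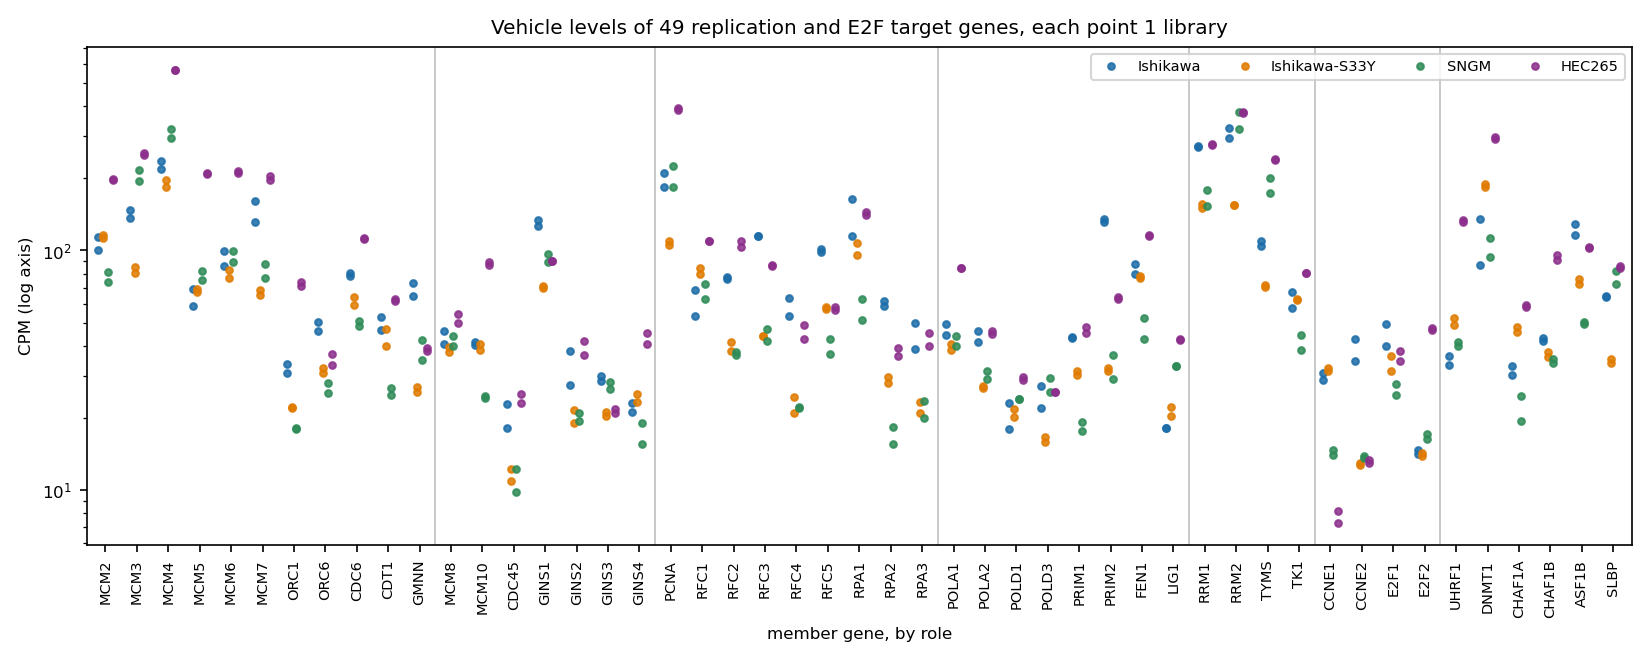
Level of each member on vehicle in CPM (log axis), 1 point per library, 2 libraries per line, with members ordered and divided by role. HEC265 lies highest for most helicase, clamp and chromatin genes, while cyclin E1 (CCNE1) runs the other way, from 7.30 and 8.15 CPM in HEC265 to 32.1 and 31.3 CPM in Ishikawa-S33Y.

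Among the licensing genes, MCM2, a helicase subunit, read 199 and 198 CPM for HEC265, 114 and 100.3 for Ishikawa, 116 and 113 for Ishikawa-S33Y, and 81.5 and 73.9 for SNGM. ORC1, the large subunit of the origin recognition complex, read 73.7 and 71.4 CPM in HEC265 and 18.0 and 18.1 in SNGM, a 3.85-fold difference (log2 1.95, SE 0.12, adjusted p = 1.04e-11, limma). CDC6, which helps to load the helicase, read 112 and 113 CPM for HEC265, 78.4 and 80.8 for Ishikawa, 64.2 and 59.0 for Ishikawa-S33Y and 50.7 and 48.5 for SNGM. In each of these genes both HEC265 libraries lay above the 6 others. CDT1, the loading partner of CDC6, read 61.8 and 62.5 CPM for HEC265, 46.7 and 52.7 for Ishikawa, 47.1 and 40.0 for Ishikawa-S33Y, and 24.8 and 26.7 for SNGM. MCM10, which acts as the helicase is switched on, read 87.3 and 89.2 CPM for HEC265, 41.6 and 40.5 for Ishikawa, 38.3 and 40.5 for Ishikawa-S33Y, and 24.7 and 24.2 for SNGM. PCNA, the sliding clamp, read 386 and 395 CPM in HEC265, 226 and 184 in SNGM, 211 and 184 in Ishikawa, and 106 and 109.6 in Ishikawa-S33Y. SNGM and Ishikawa overlapped in PCNA (adjusted p = 0.804), and both lay above Ishikawa-S33Y.

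Of the 4 nucleotide supply genes, TYMS, which makes thymidylate, read 242 and 239 CPM in HEC265, 200.5 and 174 in SNGM, 109.9 and 105 in Ishikawa, and 70.5 and 71.8 in Ishikawa-S33Y, with no overlap between lines. RRM2, the regulated subunit of ribonucleotide reductase, read 374 and 377 CPM in HEC265, 379 and 322 in SNGM and 324 and 295 in Ishikawa, and 154 and 155 in Ishikawa-S33Y. The first 3 lines did not differ by the test (adjusted p = 0.114 to 0.605 for their 3 pairs), and each was above Ishikawa-S33Y. UHRF1, which carries DNA methylation through replication, read 132 and 134 CPM in HEC265 and between 33.3 and 52.2 in the other 6 libraries. E2F2, itself an E2F factor, read 47.6 and 46.6 CPM in HEC265 and between 13.9 and 17.1 in the other lines, which did not differ from each other by the test (adjusted p = 0.289 to 0.9). E2F1, another E2F factor, read 49.1 and 40.0 CPM in Ishikawa, 38.1 and 34.6 in HEC265, 36.1 and 31.4 in Ishikawa-S33Y and 27.6 and 24.9 in SNGM. Only the differences of SNGM from Ishikawa and from HEC265 passed the test (adjusted p = 0.000529 and 0.0245). SLBP, the histone mRNA binding protein, read 85.9 and 84.4 CPM in HEC265, 82.2 and 72.6 in SNGM, 63.7 and 64.3 in Ishikawa and 35.2 and 33.9 in Ishikawa-S33Y. Of its 6 pairs of lines, HEC265 and SNGM alone did not differ by the test (adjusted p = 0.22).

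With limma, CCNE1 was the single member lower in HEC265 than in both Ishikawa-S33Y and SNGM. It read 32.1 and 31.3 CPM for Ishikawa-S33Y, 30.8 and 28.6 for Ishikawa, 14.7 and 14.01 for SNGM, and 7.30 and 8.15 for HEC265. The upper 2 lines did not differ by the test (adjusted p = 0.570), and the HEC265 level was 3.76-fold below Ishikawa-S33Y (log2 -1.91, SE 0.12, adjusted p = 6.81e-12) and 1.76-fold below SNGM. CCNE2, the second cyclin E, set Ishikawa apart instead, with 34.6 and 42.8 CPM there and 12.7 to 13.8 CPM in the 6 libraries of the other lines.

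Ishikawa-S33Y was lower than Ishikawa for 28 members and higher for 0 (48.3% of all genes were called in either direction, 20% higher and 28.2% lower). The count of 0 came with limma; voom on recovered reads called 4 members higher and 28 lower, and re-centring 3 and 29. By role, 8 of the 9 clamp, loader and single-strand binding genes were lower, 6 of 11 licensing genes, 4 of 7 helicase activation genes, 4 of 8 polymerase and joining genes, 3 of 4 nucleotide genes, 2 of 6 chromatin genes and 1 of 4 G1/S regulators. Of the 50 other replication genes 6 were higher and 28 lower in Ishikawa-S33Y than in Ishikawa, and of the 27 G2/M genes 3 and 15. PRIM2, the large primase subunit, read 136 and 132 CPM in Ishikawa and 31.3 and 32.2 in Ishikawa-S33Y, a 4.12-fold difference (log2 -2.04, SE 0.14, adjusted p = 2.56e-10). SNGM, at 36.4 and 28.9 CPM, did not differ from Ishikawa-S33Y by the test (adjusted p = 0.858), and HEC265 lay between, at 63.7 and 62.4 CPM. SNGM was higher than Ishikawa for 6 members and lower for 28, beside 66.8% of all genes (28% and 38.8%), and higher than Ishikawa-S33Y for 12 and lower for 14, beside 60.8% (28.1% and 32.7%). RPA2, of the single-strand binding complex, was the second largest fall between Ishikawa (61.4 and 58.4 CPM) and SNGM (18.3 and 15.5 CPM), at 3.41-fold.

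With SM08502, limma called members in both directions in each of the 4 lines. The rises in Ishikawa and SNGM were 1 member each, RPA3 and POLD1. Both calls were lost in fits on the line's own libraries, and that of RPA3 also without a filter and in voom. Ishikawa had 1 member that rose and 3 that fell, where 15.2% of all genes were called, 6.5% higher and 8.68% lower. Ishikawa-S33Y had 8 rises and 6 falls, beside 29.1% of all genes (18.5% higher, 10.6% lower). SNGM had 1 rise and 3 falls, beside 7.86% (3.8% higher, 4.06% lower). HEC265 had 7 rises and 3 falls, beside 14.7% (9.27% higher, 5.39% lower). As shares of 49, the members' counts were below or near the background in Ishikawa, Ishikawa-S33Y and SNGM and above it in HEC265. The HEC265 count of 10 was 5 whichever 1 of the 4 libraries compared was left out, and 7 after re-centring each library on its median. The median member change was -0.10, 0.04, 0.00 and 0.21 in these lines, beside 0.00, 0.11, 0.00 and 0.07 for all genes. In all, 13 members were called higher in at least 1 line and lower in none, 7 lower in at least 1 line and higher in none, and 29 were called in none. How many of all genes were called in at least 1 line, or in all 4, was not counted, so these counts have no background beside them. The uncalled members ranged from -0.58 to 0.37 on the log2 scale in Ishikawa, -0.40 to 0.36 in Ishikawa-S33Y, -0.35 to 0.49 in SNGM and -0.29 to 0.50 in HEC265. In bulk RNA, a change in the share of cells in S phase cannot be told apart from a change in RNA per cell.

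**Figure D2:**
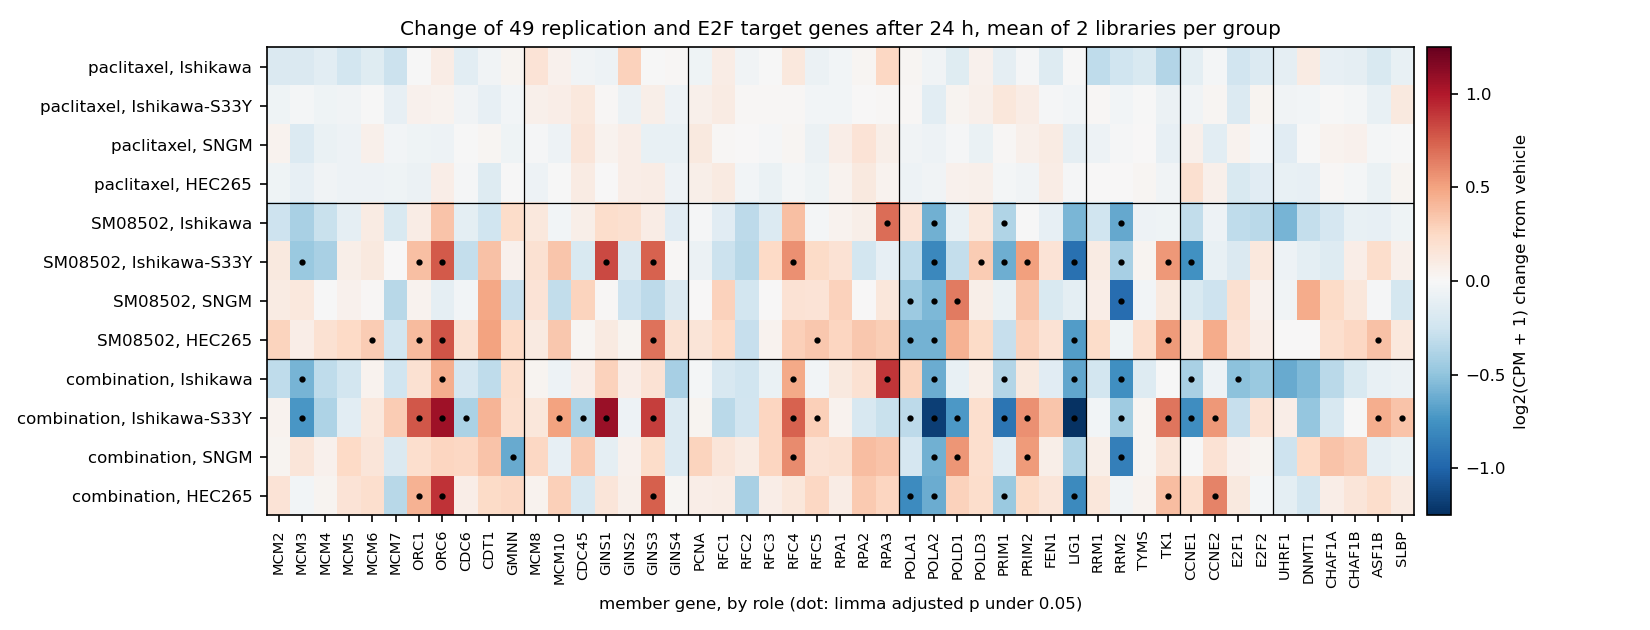
Change of each of the 49 members from the vehicle of the same line (colour, log2(CPM + 1) difference of 2-library means), by treatment and line, with members divided by role as in the plot of vehicle levels and a dot where the limma adjusted p was under 0.05. The paclitaxel rows carry no dot, and the SM08502 and combination rows show POLA2 lower in all 4 lines and ORC6 higher in Ishikawa-S33Y and HEC265.

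Of the 7 members that fell in at least 1 line, 4 (POLA1, POLA2, PRIM1 and LIG1) belong to the 8 polymerase, primase and joining genes, and the others were RRM2, CCNE1 and MCM3. POLA2, the accessory subunit of polymerase alpha, fell in all 4 lines. It read 46.2 and 41.5 CPM on vehicle and 27.7 and 29.3 with SM08502 in Ishikawa, 26.6 and 27.04 against 15.3 and 14.5 in Ishikawa-S33Y, 31.3 and 29.2 against 19.5 and 20.6 in SNGM, and 44.9 and 46.2 against 30.2 and 29.4 in HEC265. In every line both treated libraries lay below both vehicle libraries. The log2 changes were -0.60, -0.81, -0.56 and -0.59 (SE 0.13 each, limma adjusted p = 0.00288, 8.2e-05, 0.00722 and 0.00283), or 1.48-fold to 1.75-fold lower. Fitted on the libraries of the line alone, the changes in Ishikawa and SNGM did not pass the test (adjusted p = 0.0966 and 0.173), while those in Ishikawa-S33Y and HEC265 did. Another annotated gene, LOC105369344, overlaps POLA2 in RefSeq, and whether reads were counted by strand is not given in the sources used here.

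RRM2, which has annotated pseudogenes, fell in 3 lines and did not pass the test in HEC265. SM08502 libraries read 186 and 211 CPM in Ishikawa (vehicle 324 and 295), 116 and 116 in Ishikawa-S33Y (154 and 155), 155 and 209 in SNGM (379 and 322), and 349.6 and 374 in HEC265 (374 and 377). Only in HEC265 did the treated and vehicle libraries come together. The log2 changes were -0.64, -0.41, -0.95 and -0.05 (SE 0.15; limma adjusted p = 0.00713, 0.0458, 0.000368 and 0.931), and the effect in HEC265 differed from that in SNGM by 0.90 (SE 0.21, adjusted p = 0.0291). The Ishikawa-S33Y call was lost under 8 of 11 alternatives, with the same sign. Fitted on each line's own libraries, the RRM2 calls in Ishikawa and SNGM were lost too. The difference between HEC265 and SNGM lost its call without a filter, after re-centring and in the compared lines alone.

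LIG1, the ligase that joins Okazaki fragments, fell from 22.1 and 20.3 to 11.5 and 9.78 CPM in Ishikawa-S33Y and from 42.7 and 42.1 to 25.4 and 26.1 CPM in HEC265. These were 1.91-fold and 1.62-fold falls (log2 -0.93 and -0.70, SE 0.21, limma adjusted p = 0.00236 and 0.0297). In Ishikawa it read 18.2 and 18.1 CPM on vehicle and 12.4 and 11.3 with SM08502 (adjusted p = 0.0719), and in SNGM 32.9 and 33.02 against 29.1 and 31.4 (adjusted p = 0.854). PRIM1, the catalytic primase subunit, fell in Ishikawa from 43.0 and 43.5 to 31.0 and 35.6 CPM and in Ishikawa-S33Y from 31.2 and 30.1 to 20.1 and 19.2 CPM. POLA1, the catalytic subunit of polymerase alpha, fell in SNGM from 40.0 and 44.0 to 30.04 and 30.6 CPM and in HEC265 from 84.8 and 84.2 to 54.7 and 57.2 CPM. In all these called cases both treated libraries lay below both vehicle libraries. In Ishikawa POLA1 read 47.9 and 57.3 CPM with SM08502 against 49.1 and 44.2 on vehicle, and the change in HEC265 differed from this by -0.75 (SE 0.18, adjusted p = 0.0266). The primase partner PRIM2 went the other way in Ishikawa-S33Y, from 31.3 and 32.2 to 43.1 and 48.1 CPM (log2 0.51, SE 0.14, adjusted p = 0.00910). POLD1, the catalytic subunit of polymerase delta, rose in SNGM from 24.1 and 23.9 to 37.4 and 38.6 CPM (log2 0.64, SE 0.16, adjusted p = 0.0170), and POLD3 rose in Ishikawa-S33Y. The PRIM2 and POLD3 calls were both lost after median re-centring and in voom (limma on the recovered reads), and that of POLD3 also in the line's own libraries and with a replicate block. The POLA1 call in SNGM was lost after re-centring, the PRIM1 call in Ishikawa after re-centring, with a pseudocount of 0.1 and without a filter, and the LIG1 call in HEC265 without a filter.

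The 13 members that rose were ORC1, ORC6 and MCM6 of licensing, GINS1 and GINS3 of helicase activation, RFC4, RFC5 and RPA3, POLD1, POLD3 and PRIM2, TK1 and ASF1B. ORC6, the smallest subunit of the origin recognition complex, rose in Ishikawa-S33Y from 32.4 and 30.9 to 57.3 and 51.8 CPM and in HEC265 from 33.4 and 37.1 to 61.2 and 61.6 CPM. These were 1.7-fold and 1.72-fold rises (log2 0.77 and 0.79, SE 0.12, limma adjusted p = 9.82e-05 and 0.000173). In Ishikawa ORC6 read 60.1 and 64.0 CPM with SM08502 against 50.4 and 46.0 on vehicle (adjusted p = 0.0534), and in SNGM 28.0 and 21.6 against 25.4 and 27.9. ORC1 also rose in Ishikawa-S33Y, from 22.1 and 22.0 to 30.2 and 27.9 CPM, and in HEC265, from 73.7 and 71.4 to 94.4 and 96.7 CPM (log2 0.38 and 0.39). GINS3, a subunit of the GINS complex, rose in both lines too, from 21.2 and 20.4 to 34.2 and 36.7 CPM and from 21.9 and 21.0 to 34.2 and 35.4 CPM (log2 0.74 and 0.68, SE 0.15, adjusted p = 0.000877 and 0.00366). In each of these rises both treated libraries lay above both vehicle libraries. The ORC1 call in Ishikawa-S33Y was lost in voom. In SNGM the treated GINS3 libraries lay below vehicle, at 20.3 and 22.8 against 26.5 and 28.2 CPM, without passing the test (adjusted p = 0.215).

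GINS1, another GINS subunit, was called in Ishikawa-S33Y, rising from 69.5 and 70.8 to 122 and 128 CPM, the largest rise of any member with SM08502 (1.78-fold, log2 0.83, SE 0.11, limma adjusted p = 1.49e-05). The effect was larger than in SNGM by 0.81, than in HEC265 by 0.71 and than in Ishikawa by 0.60 (adjusted p = 0.00290, 0.00814 and 0.0437). With median re-centring the difference from Ishikawa was 0.48 with an adjusted p of 0.248. TK1, thymidine kinase, rose from 62.8 and 62.1 to 91.8 and 91.3 CPM in Ishikawa-S33Y and from 80.2 and 80.9 to 116 and 118 CPM in HEC265, and read 59.8 and 59.6 against 67.1 and 57.6 CPM in Ishikawa. RFC4, a subunit of the clamp loader, rose in Ishikawa-S33Y from 20.9 and 24.4 to 36.2 and 32.05 CPM. MCM6, RFC5 and the histone chaperone ASF1B rose in HEC265 by 0.32, 0.33 and 0.37 on the log2 scale. All 3 of these calls were lost after median re-centring, and those of MCM6 and RFC5 also in voom. RPA3, the smallest subunit of the single-strand binding complex, was the rise in Ishikawa, with 49.6 and 38.8 CPM on vehicle and 56.5 and 91.7 with SM08502 (log2 0.70, SE 0.21, adjusted p = 0.0298). Without SM08502 replicate 2 that change was 0.36 (adjusted p = 0.426), and RPA3 overlaps the gene UMAD1 and has annotated pseudogenes.

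CCNE1 fell in Ishikawa-S33Y, one of the lines where it was highest on vehicle, from 32.1 and 31.3 to 19.3 and 17.5 CPM (log2 -0.75, SE 0.12, limma adjusted p = 9.53e-05). It read 23.6 and 24.2 CPM with SM08502 in Ishikawa against 30.8 and 28.6 on vehicle (adjusted p = 0.094), 13.7 and 11.2 for SNGM, and 8.21 and 8.94 for HEC265. The Ishikawa-S33Y effect lay below that in HEC265 by 0.89 and below that in SNGM by 0.56 (SE 0.17, adjusted p = 0.00310 and 0.0399). The helicase subunit MCM3 fell in Ishikawa-S33Y, from 85.5 and 80.7 to 62.3 and 57.3 CPM. Of the other subunits of MCM2-7, only MCM6 passed the test, in HEC265. Of the remaining fixed genes, MCM2, MCM10, CDC6, CDT1, PCNA, TYMS, CCNE2, E2F1, E2F2, UHRF1 and SLBP were called in no line with SM08502. CDT1, for example, read 38.1 and 35.0 CPM for SNGM and 85.8 and 90.8 for HEC265 with the drug, above vehicle in both, at adjusted p = 0.241 and 0.167. UHRF1 and DNMT1, both of DNA methylation maintenance, split by library in Ishikawa, with 30.6 and 16.97 CPM and 128 and 60.7 CPM in the SM08502 duplicates and 48.3 and 21.2 CPM and 195 and 68.9 CPM in the paclitaxel duplicates.

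**Figure D3:**
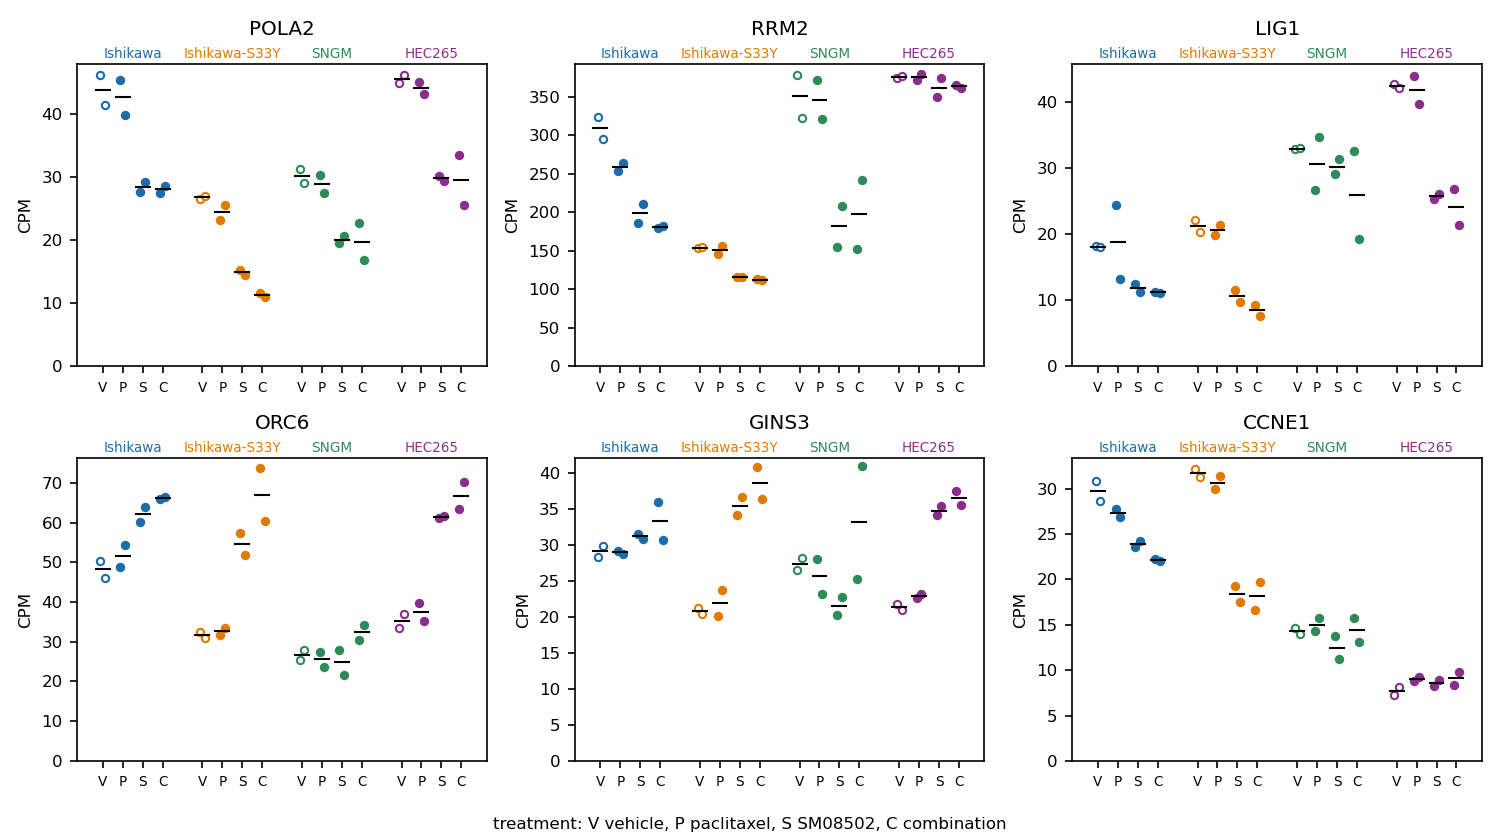
CPM of 6 members in every library by line and treatment (V vehicle, P paclitaxel, S SM08502, C combination); each point is 1 library, open points are vehicle and the bar is the mean of 2. POLA2 is lower with S and C in all lines, the RRM2 libraries with S overlap vehicle in HEC265 and lie below it in the other lines, LIG1 and CCNE1 differ by line, and ORC6 and GINS3 are higher with S in Ishikawa-S33Y and HEC265.

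Differences of the SM08502 effect between lines were tested for all 6 pairs. They were called for 2 members between Ishikawa-S33Y and Ishikawa (2.43% of all genes), 2 between HEC265 and Ishikawa (2.56%), 6 between SNGM and Ishikawa-S33Y (9.83%), 2 between HEC265 and Ishikawa-S33Y (5.66%) and 3 between HEC265 and SNGM (2.03%). Between SNGM and Ishikawa 0 were called with limma (3.66% of all genes), with 7 at an unadjusted p under 0.05 where 3230 of 17011 genes were, and 2 called by voom. For GINS3 and ORC6, SNGM minus Ishikawa-S33Y was -1.07 and -0.88 (limma adjusted p = 0.00322 and 0.00335). HEC265 minus SNGM was 1.01 and 0.89 (0.0127 and 0.00787). The GINS3 call between HEC265 and SNGM was lost after re-centring and in the compared lines alone. Pairs that have a line in common share its vehicle and treated libraries.

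The calls depended on the scaling and on the spread used, which the main fit pooled over all lines. In Ishikawa-S33Y the split of 8 higher and 6 lower became 5 and 12 in voom with median-of-ratios factors, which moved the all-gene median by -0.13, and 11 of the 14 calls were shared. In HEC265 the split of 7 and 3 became 4 and 3 after re-centring and 6 and 5 in voom. Fitted to its own libraries alone, the same line gave 25 and 6, and the Ishikawa and SNGM fits gave 0 calls each. The share of all genes called in these fits was not counted.

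With SM08502 the members' mean lay nearer 0 than that of the 27 G2/M genes in Ishikawa-S33Y, SNGM and HEC265, but not in Ishikawa, and it averages members that rose and members that fell. The mean change of the members was -0.09, 0.00, -0.01 and 0.16 in the 4 lines in the order above, whereas that of the 27 G2/M genes was -0.01, 0.51, -0.44 and -0.25. Ishikawa had 1 G2/M gene that rose and 1 that fell, Ishikawa-S33Y 14 and 1, SNGM 0 and 10, and HEC265 0 and 5. TTK, a spindle checkpoint kinase, rose by 0.49 in Ishikawa and by 1.08 in Ishikawa-S33Y, and UBE2C, which acts with the anaphase-promoting complex, fell by 0.47 in Ishikawa. CDC20, an activator of that complex, rose by 0.86 in Ishikawa-S33Y, where HMMR, a spindle protein, fell by 0.98. In SNGM CCNB1, the mitotic cyclin B1, fell by 1.03 and KIF20A, a kinesin of cytokinesis, by 0.98; in HEC265 HMMR fell by 0.93 and the cyclin CCNB2 by 0.65. As shares of each list, 8.16% of members against 7.41% of G2/M genes were called in Ishikawa and 20.4% against 18.5% in HEC265. The shares were 28.6% against 55.6% for Ishikawa-S33Y and 8.16% against 37.0% for SNGM. Of all genes, 15.2% were called in Ishikawa, 14.7% in HEC265, 29.1% in Ishikawa-S33Y and 7.86% in SNGM. In HEC265 the 2 lists had means of opposite sign. The differences between the lists were not tested.

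**Figure D4:**
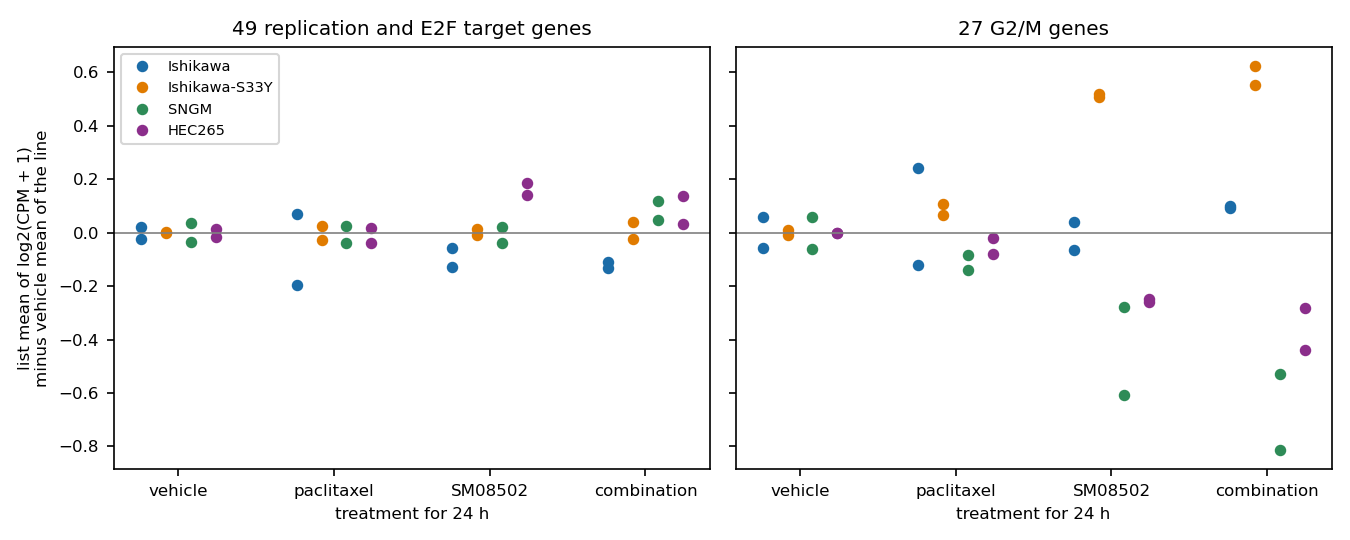
Mean log2(CPM + 1) of the 49 members (left) and of the 27 G2/M genes (right) in each library, minus the vehicle mean of the same line; each point is 1 library. With SM08502 the line means of the members lie between -0.09 and 0.16, and those of the G2/M genes between -0.44 in SNGM and 0.51 in Ishikawa-S33Y.

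The 50 other replication genes, among them polymerase epsilon and more E2F partners, gave 1 rise and 4 falls in Ishikawa. Ishikawa-S33Y had 9 and 6, SNGM 1 and 1 and HEC265 4 and 4. As shares of this list the calls were 10%, 30%, 4% and 16%. These were near or below the 15.2%, 29.1%, 7.86% and 14.7% of all genes called. POLE, the catalytic subunit of polymerase epsilon, fell by 0.60 in Ishikawa and by 0.89 in Ishikawa-S33Y. ORC4, of the origin recognition complex, rose by 0.39 in Ishikawa. DSCC1, of an alternative clamp loader, fell by 0.70 in Ishikawa-S33Y and by 0.64 in HEC265, and the atypical E2F factor E2F8 rose by 0.55 in Ishikawa-S33Y with POLE3 at 0.53. In SNGM POLD2 rose by 0.42 and DBF4, the activator of the CDC7 kinase that fires origins, fell by 0.39. In HEC265 WDHD1, which links polymerase alpha to the helicase, fell by 0.77, while CDC25A, a phosphatase that activates CDK2, rose by 0.51. The median of these 50 genes was -0.04, 0.00, -0.01 and 0.13 in the 4 lines, beside 0.00, 0.11, 0.00 and 0.07 over all genes.

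The combination, compared with the same vehicle libraries as SM08502 alone, called more members than SM08502 did in Ishikawa (10 against 4), Ishikawa-S33Y (22 against 14) and SNGM (6 against 4), and fewer in HEC265 (9 against 10). The order turned in SNGM without both shallow libraries (3 against 5) and in voom (4 against 6), and in HEC265 without a filter (9 against 8) and after re-centring (8 against 7). Ishikawa had 3 rises and 7 falls, where 22.8% of all genes were called (11.6% higher, 11.2% lower). Ishikawa-S33Y had 12 and 10, beside 42% (24% higher, 18% lower). SNGM had 3 and 3, beside 18.4% (10.8% higher, 7.54% lower). HEC265 had 5 and 4, beside 19.5% (12.4% higher, 7.16% lower). As shares of 49 these counts were near or below the background in every line. POLA2 was again lower in all 4 lines, at 27.5 and 28.7 CPM for Ishikawa, 11.6 and 11.0 for Ishikawa-S33Y, 22.7 and 16.8 for SNGM and 33.6 and 25.6 for HEC265, 1.52-fold to 2.26-fold below vehicle. The POLA2 call in SNGM was lost without both shallow libraries, and the calls in Ishikawa and SNGM were lost in the fits on each line's own libraries. ORC6 read 66.0 and 66.4 CPM for Ishikawa, 73.6 and 60.5 for Ishikawa-S33Y and 63.5 and 70.1 for HEC265, and passed the test in these 3 lines, but not in SNGM (30.5 and 34.2 CPM, adjusted p = 0.137). LIG1 was lowest in Ishikawa-S33Y, at 9.30 and 7.69 CPM, 2.35-fold below vehicle (log2 -1.23, SE 0.21, limma adjusted p = 9.94e-05), and was also lower in Ishikawa and HEC265.

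GINS1 in Ishikawa-S33Y reached 168 and 133 CPM (log2 1.08, SE 0.11, limma adjusted p = 2.23e-07). PRIM1 fell in Ishikawa, Ishikawa-S33Y and HEC265, by 0.36, 0.91 and 0.46, and POLA1 fell in Ishikawa-S33Y and HEC265. RRM2 read 180.5 and 182 CPM for Ishikawa, 114 and 112 for Ishikawa-S33Y, 153 and 243 for SNGM, and 366 and 361 for HEC265, lower than vehicle in all but HEC265. E2F1 fell in Ishikawa, from 49.1 and 40.0 to 30.6 and 30.8 CPM (log2 -0.52, SE 0.17, adjusted p = 0.0292). CCNE1 was lower in Ishikawa (22.3 and 22.0 CPM) and Ishikawa-S33Y (16.6 and 19.7 CPM), and CCNE2 higher in Ishikawa-S33Y (15.9 and 23.1 CPM) and HEC265 (21.0 and 20.3 CPM). POLD1 was the 1 member called in both directions, lower in Ishikawa-S33Y by 0.72 and higher in SNGM by 0.55. RFC4 rose in Ishikawa, Ishikawa-S33Y and SNGM by 0.48, 0.73 and 0.59, and GMNN fell in SNGM, from 42.2 and 35.0 to 32.9 and 18.0 CPM. The RFC4 call in SNGM was lost without both shallow libraries (log2 0.41, adjusted p = 0.0927), in voom and in the line's own libraries. In Ishikawa 1 of the 10 calls was kept in the line's own libraries, and in SNGM the RRM2 call was lost in that line's own. Calls lost after re-centring were PRIM1 in Ishikawa, POLA1, RFC5 and RRM2 in Ishikawa-S33Y, and CCNE2 and TK1 in HEC265. In voom CCNE2 and TK1 lost their calls in HEC265, and CCNE2, RFC5 and SLBP in Ishikawa-S33Y. GMNN, PRIM2 and RFC4 did so in SNGM. Of the other fixed genes, MCM10, ORC1 and SLBP rose and CDC6 fell in Ishikawa-S33Y, and ORC1 rose in HEC265.

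The shallow libraries bear on these counts. Without both of them, SNGM had 1 rise and 2 falls, 2 of the 6 calls were kept (GMNN, POLA2, PRIM2 and RFC4 were lost), and the GMNN change was -0.22 (adjusted p = 0.57); the CCNE2 rise in Ishikawa-S33Y was 0.29 (adjusted p = 0.226). The SNGM split was 1 and 3 in voom, and the HEC265 split 3 and 5 after re-centring and 3 and 6 in voom. The mean change with the combination was -0.12, 0.01, 0.08 and 0.08 for the members and 0.10, 0.59, -0.67 and -0.36 for the G2/M genes.

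Paclitaxel alone called 0 members in each line with limma, where at most 3 of 17011 genes were called (0.0118% in Ishikawa, 0% in Ishikawa-S33Y, 0.0176% in SNGM, 0.00588% in HEC265). At an unadjusted p under 0.05 there were 2 members in Ishikawa (RRM1 and TK1, named after their values were seen) and 0 in the other lines, where 1254 of 17011 genes were under it in Ishikawa and 122 to 300 in the other lines, and voom also called 0. Member changes ran from -0.36 (TK1) to 0.28 (GINS2) in Ishikawa and stayed within -0.19 and 0.20 elsewhere. TK1 in Ishikawa read 49.3 and 46.8 CPM against 67.1 and 57.6 on vehicle (adjusted p = 0.374), and the G2/M list had 0 calls too. Without paclitaxel replicate 1, 4 members were called in Ishikawa.

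Adding paclitaxel to SM08502 gave 0 called members in each line with limma and 0 with voom. Of all genes, 0% were called in Ishikawa, 0.129% in Ishikawa-S33Y (0.0588% higher, 0.0705% lower), 0.253% in SNGM (0.235% higher, 0.0176% lower) and 0.00588% in HEC265. At an unadjusted p under 0.05 there were 9 members in Ishikawa-S33Y, 6 in SNGM and 0 in Ishikawa and HEC265, where 2088, 2704, 308 and 237 of 17011 genes were, in that order. Of the 49 members, these counts were above the all-gene share in Ishikawa-S33Y and below it in the other 3 lines. The largest differences were CCNE2 in Ishikawa-S33Y, at 15.9 and 23.1 CPM with both drugs against 12.1 and 11.9 with SM08502 (log2 0.63, adjusted p = 0.131), and GINS3 in SNGM, at 25.4 and 41.1 against 20.3 and 22.8 CPM (log2 0.56, adjusted p = 0.0973). In each of these groups the higher combination value came from replicate 2, the shallow library. Without SNGM combination replicate 1, which leaves the shallow library alone, 15 members were called.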

How the data were processed

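Bulk RNA sequencing of 32 libraries was used, 2 in each of 16 groups of cell line and treatment, grouped by the labels. The authors deposited 1 table of 35238 genes whose values are log10(CPM + 1), the base having been settled from the values: undone, they gave whole reads for 100% of values (tolerance 0.1 read). The submitters' processing notes name bcl2fastq, STAR, kallisto and GRCh38, while the counting program, annotation and strand setting are not given in the sources used here; splicing tables were not analysed here. RefSeq annotation shows 26 of the 49 members overlapping another gene and 11 with a pseudogene or antisense gene by symbol, so their values are uncertain where reads could be shared.

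Values were turned into CPM, kept where CPM was above 1 in at least 2 libraries (17011 genes), and fitted as log2(CPM + 1) in limma 3.58.1 (R 4.3.3, trend), which understates the change of low genes. One model held all 32 libraries and 16 group means (16 residual degrees of freedom), tests were two-sided, and p-values were Benjamini-Hochberg adjusted over all tested genes within each of 28 contrasts. The design had assumed log CPM values, and the test was moved to the scale above. Scripts were tested on simulated data, and promoter windows were searched in Python 3.11.15. Members may be named by direction; full values are given for 14 fixed genes and the largest called changes each way. Members, lists and rules were chosen with earlier results of these data known. Alternatives were no filter, a pseudocount of 0.1, median re-centring, voom on recovered reads, the compared lines alone, a replicate block, each replicate left out and, added after seeing the data, both shallow libraries left out. The level of 3 reads was 0.0879 to 1.87 CPM, depending on the library. Some results are not reported here.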

Additional observations from a re-analysis of the deposited data

Results flagged for a closer look

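In 15 cases the SM08502 effect on a member differed between lines by a test of the difference itself (limma adjusted p under 0.05 over 17011 genes, 2 libraries in each group). SNGM against Ishikawa-S33Y gave 6 of them. GINS3, GINS1 and ORC6, which open or license origins, differed by -1.07 (0.00322), -0.81 (0.0029) and -0.88 (0.00335) on the log2 scale, with the limma adjusted p in parentheses. MCM10 differed by -0.66 (0.044), and POLD1 and CCNE1 by 0.94 (0.0136) and 0.56 (0.0399). These 6 were 12.2% of the members, beside 9.83% of all genes. The shares were 6.12% and 2.03% for HEC265 against SNGM and 4.08% and 5.66% for HEC265 against Ishikawa-S33Y. For HEC265 and Ishikawa-S33Y against Ishikawa they were 4.08% and 2.56%, and 4.08% and 2.43%. Between SNGM and Ishikawa 0 members and 3.66% of all genes were called.

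HEC265 against SNGM gave 3, with GINS3 at 1.01 (0.0127), RRM2 at 0.90 (0.0291) and ORC6 at 0.89 (0.00787). HEC265 against Ishikawa-S33Y gave CCNE1 at 0.89 (0.0031) and GINS1 at -0.71 (0.00814). HEC265 against Ishikawa gave POLA1 at -0.75 (0.0266) and TK1 at 0.59 (0.0487), and Ishikawa-S33Y against Ishikawa gave GINS1 at 0.60 (0.0437) and TK1 at 0.60 (0.0461). Of the 13 that were followed, each under 15 alternatives, GINS3 and ORC6 between SNGM and Ishikawa-S33Y and CCNE1 between HEC265 and Ishikawa-S33Y stayed called under all of them. GINS1 and TK1 between Ishikawa-S33Y and Ishikawa each lost the call under 12 of 15, as did TK1 between HEC265 and Ishikawa. SM08502 was given at a different dose in each line, so line and dose cannot be told apart.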

How the results depend on the processing

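The 2 libraries in each group limit the precision, and none of the 123 named member results recomputed under the alternatives changed sign; other members named in the text were followed only in the counts. The cause of the changed counts below was not tested. Counts are of the 49 members called. The share of all genes called under each alternative was not counted, so these counts have no background beside them. Without a filter on low values, SM08502 in Ishikawa gave 2 in place of 4. With voom it gave 7, and the difference of the SM08502 effect gave 2 for SNGM against Ishikawa, 1 for HEC265 against Ishikawa, 11 for SNGM against Ishikawa-S33Y, 6 for HEC265 against Ishikawa-S33Y and 5 for HEC265 against SNGM. Fitted on the compared lines alone, SM08502 gave 0 in Ishikawa, 0 in SNGM and 31 in HEC265, the combination 1, 1 and 26, and the combination against SM08502 gave 1 in Ishikawa-S33Y. In that fit the effect differed for 0 members between Ishikawa-S33Y and Ishikawa, 4 between HEC265 and Ishikawa and 11 between HEC265 and Ishikawa-S33Y. With a pseudocount of 0.1 the counts were 0 for Ishikawa-S33Y against Ishikawa and 1 for HEC265 against Ishikawa. After re-centring they were 0 for Ishikawa-S33Y against Ishikawa and 1 each for SNGM against Ishikawa, HEC265 against Ishikawa and HEC265 against SNGM.

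Deviations of same-numbered libraries were close to uncorrelated for HEC265 (r between -0.06 and 0.08) and for Ishikawa-S33Y (r between -0.05 and 0.03). For Ishikawa r lay between -0.33 and 0.70, and for SNGM between -0.45 and 0.43. In these lines some same-numbered libraries varied together and others in opposite directions, so the numbers did not pair all treatments alike. With the replicate block, the effect differed for 0 members between Ishikawa-S33Y and Ishikawa, 1 between SNGM and Ishikawa and 1 between HEC265 and Ishikawa, and the other 25 of 28 counts stayed within 1.5 times.

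Without both shallow libraries, an alternative added after seeing the data, SM08502 in Ishikawa gave 9 and the combination in SNGM 3. The effect then differed for 4 members between Ishikawa-S33Y and Ishikawa, 2 between SNGM and Ishikawa, 5 between HEC265 and Ishikawa, 10 between SNGM and Ishikawa-S33Y and 4 between HEC265 and Ishikawa-S33Y.

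Leaving out each replicate in turn gave 2 to 9 members for SM08502 in Ishikawa, 8 to 10 in Ishikawa-S33Y, 1 to 2 in SNGM and 5 to 5 in HEC265. The combination gave 3 to 6 in Ishikawa, 3 to 15 in SNGM (15 without combination replicate 1, 3 without the shallow replicate 2) and 3 to 6 in HEC265. Paclitaxel in Ishikawa gave 0 to 4. The combination against SM08502 gave 0 to 1 in Ishikawa-S33Y and 0 to 15 in SNGM. The effect differed for 0 to 3 members between Ishikawa-S33Y and Ishikawa, 0 to 4 between SNGM and Ishikawa, 0 to 5 between HEC265 and Ishikawa, 3 to 6 between SNGM and Ishikawa-S33Y, 1 to 2 between HEC265 and Ishikawa-S33Y and 0 to 2 between HEC265 and SNGM. A group left with 1 library was assumed to vary like the others.

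Of 123 named member results, 21 lost their call with the compared lines alone, 10 with voom, 9 after re-centring, 11 without a filter, 6 with the pseudocount, 4 with the block and 3 without both shallow libraries. With TTTCCCGC as the only E2F sequence, 18.5% of member windows held it. On vehicle the split of SNGM against Ishikawa was 6 higher and 28 lower as reported and 9 and 26 after re-centring, and that of SNGM against Ishikawa-S33Y was 12 and 14, then 16 and 13 after re-centring and 11 and 18 with voom.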
